A study of Mus musculus with 15 samples.

Results

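A set of 10 early response genes linked to growth arrest and cell stress were followed in the mouse hippocampus across fear extinction. They are Ier2, Ier5, Axud1 (now Csrnp1), Trib1, Arfl4 (now Arl4d), Btg2, Gadd45b, Gadd45g, Klf4 and Klf2. All probes that the array design names for one of these genes were taken, which gave 17 probes for 10 genes, and all 17 passed the filter on dim probes. In all, 26117 genes were tested. The genes were chosen with their differences from control in view, so these differences are given as a description, without a p-value for any of them. Calls and counts at a p threshold set the genes beside all genes and are not a test of them.

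In the study, male C57BL/6J mice were shocked in a conditioning box and then returned to it on following days without shock until they froze less. Total RNA of the hippocampus was read on 15 single-colour arrays, 1 for each mouse. The E1 group holds 5 mice sampled 1 h after extinction trial 1, in which they still froze strongly, and the ELF group holds 5 mice sampled 1 h after trial 5, by which they froze less. The 5 control mice received no shock; their sample names call them naive, but the series design describes exposure to the box alone, and no time before sampling is given for them. No mutant allele or drug is named in any group. E1 and ELF mice share the shock and the return to the box, so the effect of a single return cannot be told apart from that of handling or of the earlier shock.

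Early response genes are transcribed within minutes of a stimulus from factors already present in the cell, such as CREB and SRF, and their transcripts are short-lived. In the hippocampus many of them follow neuronal firing. The GADD45 proteins and Btg2 are best known from cells that stop dividing after damage, but neurons, which no longer divide, also make them. Klf2 and Klf4 are zinc finger factors that in blood vessels follow the shear of flowing blood through the kinase ERK5 and MEF2 factors.

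Promoter sequence was looked at because 7 of the 10 genes lay wholly above control in E1. RefSeq (GRCm38.p6) held a window for 8 of the 10 genes, not for Ier2 and Trib1, and Csrnp1 had 4 windows. The 250 bases before each annotated start were searched on both strands, as were all 32851 windows of this length. The full CRE, TGACGTCA, which CREB binds, was found in Arl4d, 26 bases before the start, and in Btg2, 166 bases before it, against 1.55% of all windows. Its core TGACG, which also lies inside the full CRE, was present in 5 of 8 genes (Csrnp1, Arl4d, Btg2, Klf4 and Klf2) and in 17.8% of all windows. The TATA box TATAAA was found in Gadd45b, 46 bases before the start, and Gadd45g, 27 bases before it, and in 12.4% of windows. The CArG box, which SRF binds, matched in 0 of 8 genes and in 1.47% of windows. The EGR site GCGNGGGCG matched in 4 of 8 genes (4.70% of windows), GGGCGG in 6 (32.7%), CCACCC in 3 (28.1%) and the AP-1 site TGANTCA in 1, Csrnp1 (6.75%). A gene was counted if any of its windows matched, whereas the shares are per window, so Csrnp1 with 4 windows had more chances. Its AP-1 match lay in window 4 only, GGGCGG in window 3 only and CCACCC in windows 1 and 2 only. A match is a description of the letters, not a measured site. The 4 windows printed are the pair with a full CRE and the pair with a TATA box, 5′ to 3′ and ending at the base before the start. Capitals mark TGACG or its reverse complement, the full CRE, or the TATA box.
Arl4d, chr11:101665291-101665540, strand +: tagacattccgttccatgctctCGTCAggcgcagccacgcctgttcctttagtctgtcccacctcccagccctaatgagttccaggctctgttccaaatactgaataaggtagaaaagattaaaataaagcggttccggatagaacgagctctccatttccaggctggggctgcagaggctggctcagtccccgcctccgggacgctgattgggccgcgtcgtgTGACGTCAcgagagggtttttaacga
Btg2, chr1:134079156-134079405, strand -: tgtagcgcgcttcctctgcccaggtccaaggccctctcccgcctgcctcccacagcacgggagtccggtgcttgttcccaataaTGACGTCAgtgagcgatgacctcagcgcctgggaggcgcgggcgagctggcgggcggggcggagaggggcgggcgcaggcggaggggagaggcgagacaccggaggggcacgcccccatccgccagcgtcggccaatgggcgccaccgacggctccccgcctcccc
Gadd45b, chr10:80929841-80930090, strand +: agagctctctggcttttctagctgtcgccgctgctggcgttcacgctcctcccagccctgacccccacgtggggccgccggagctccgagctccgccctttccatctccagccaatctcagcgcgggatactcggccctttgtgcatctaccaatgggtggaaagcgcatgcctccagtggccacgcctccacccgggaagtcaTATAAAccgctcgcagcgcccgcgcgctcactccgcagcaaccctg
Gadd45g, chr13:51846425-51846674, strand +: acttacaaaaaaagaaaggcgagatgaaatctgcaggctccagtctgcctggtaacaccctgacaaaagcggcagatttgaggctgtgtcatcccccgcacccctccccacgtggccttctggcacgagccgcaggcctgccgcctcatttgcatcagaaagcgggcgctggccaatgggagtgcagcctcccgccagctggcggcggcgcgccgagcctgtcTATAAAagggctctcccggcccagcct

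All values are log2 intensities relative to the array's own 75th percentile, so they compare arrays, not genes. Differences are on the log2 scale with their standard error (SE) from a limma fit of all 15 arrays, and a gene was called at a Benjamini-Hochberg adjusted p under 0.05. The 75th percentile intensity lay between 1445 and 2929, and all 10 markers of excitatory neurons and hippocampus were well above background on every array. Arrays were hybridised on 4 slides: controls 1 to 4 lay on slide 1, control 5 with E1 1 to 3 on slide 2, E1 4 and 5 with ELF 3 and 4 on slide 3, and the other 3 ELF arrays on slide 4. Within a slide, E1 could therefore be set against only 1 control array, and ELF against none. Spots well above background made up 95.8% to 97.2% on slide 4 (ELF 1, 2 and 5) and 83.5% to 93.1% on the other arrays. ELF 3 stood apart in tissue content: its summed choroid plexus markers were 2.47 times the 75th percentile, against 26.2 to 31.2 on the other ELF arrays and 35.3 to 54.9 in controls. Differences between mice are those of animals labelled as biological replicates, and in bulk tissue fewer cells of a type and less RNA per cell cannot be told apart.

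Setting E1 against control asks what the hippocampus made shortly after the first unreinforced return to the box. Of the 10 genes, 3 rose, namely Ier2, Axud1 and Trib1, and 0 fell in limma, where 0.188% of all genes were called (0.134% higher and 0.0536% lower). At an unadjusted p under 0.05 stood 8 of the 10 and 13.1% of all genes. In 7 of them all E1 arrays lay above all control arrays: Ier2, Axud1, Trib1, Arfl4, Btg2, Gadd45b and Gadd45g. Over all genes, 2.08% had such a gap. In 0 of the 10 did E1 lie wholly below control (1.63% of all genes). The median difference was 0.53 for the 10 genes and 0.04 for all genes. With the replicate number as a block and only the control and E1 arrays, limma called 8 of the 10 (Arfl4, Btg2, Gadd45b, Gadd45g and Klf4 in addition) and 3148 of all genes; over all 15 arrays the block left Ier2 and Axud1 called and 12 of all genes. Whether replicate numbers mark pairs is not settled, and calls named for single genes below are those without the block. These shares are set beside each other only, since this contrast was in view when the genes were chosen.

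Setting ELF against control asks what was present at the trial when freezing had become low. Arfl4 and Gadd45g rose, Klf4 fell, and the other 7 were not called, so 3 of 10 were called where 2.1% of all genes were (1.45% higher, 0.651% lower). At an unadjusted p under 0.05 stood 5 of the 10 and 23.0% of all genes. ELF lay above control with no overlap in 3 genes (Ier2, Arfl4 and Gadd45g; 2.5% of all genes) and below it in 1 (Klf4; 2.24% of all genes). The median difference was 0.21 for the 10 genes and 0.10 for all genes. Both contrasts use the same 5 control arrays. Here too the shares are set beside each other only, since the genes were chosen with their differences from control in view.

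**Figure D1:**
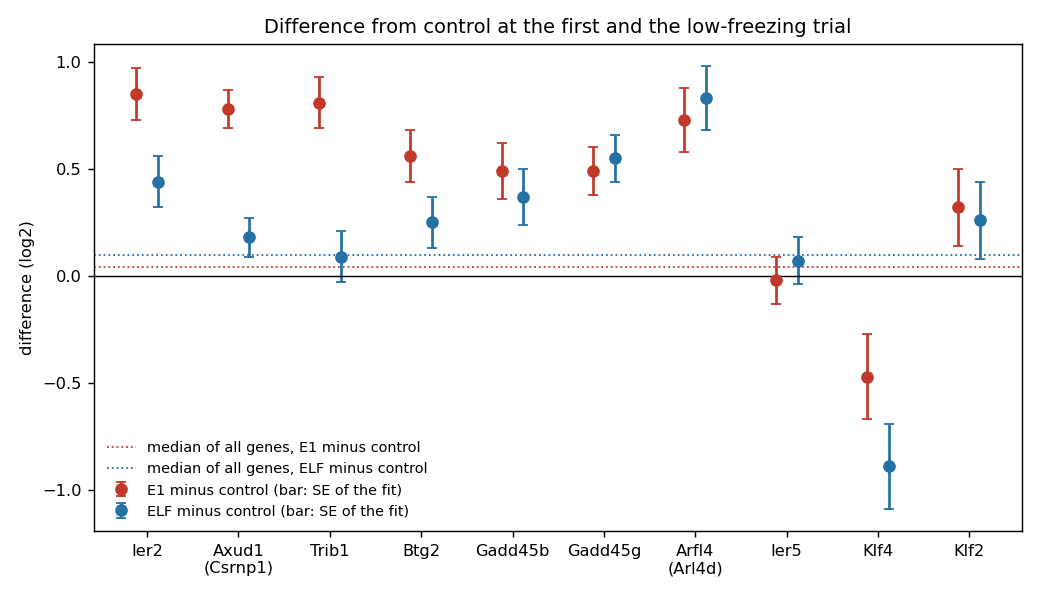
Difference from control (log2, vertical axis) for each of the 10 genes in E1 (red) and ELF (blue); points are the fitted differences, bars their SE, dotted lines the medians of all genes (0.04 and 0.10). Ier2, Axud1, Trib1 and Btg2 have the higher point in E1. So has Gadd45b, but by only about 1 SE (0.49 and 0.37, SE 0.13). Arfl4 and Gadd45g have both points within 1 SE of each other, and Klf4 lies below 0 in both. Klf2 is shown by its unsaturated probe.

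The direct contrast of ELF with E1 called 0 of the 10 genes in limma (0.00766% of all genes were called), and 4 of them, Ier2, Axud1, Trib1 and Btg2, had an unadjusted p under 0.05, all lower in ELF, as had 9.64% of all genes in either direction. In Axud1 and Trib1 every ELF array lay below every E1 array, as in 0.942% of all genes, and in 0 of the 10 did ELF lie wholly above E1 (1.1% of all genes). The median difference was -0.30 for the 10 genes and 0.05 for all genes. The genes were chosen with earlier results of these data known, so these counts describe them and do not test them. Axud1 and Trib1 were called in this contrast with the authors' deposited log2 values (11 of all genes called) and with quantile normalization (5). They were called too after normexp background correction followed by quantile normalization (9). They were also called with slide as a fixed block, where 5043 genes (19.3%) were.

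The first role is that of nuclear proteins made early after a stimulus. Ier2 encodes a small nuclear protein of the immediate early class. Its probe at chromosome 8, 83243584 to 83243618 of mm7 (minus strand), read -1.06, -1.23, -1.27, -1.30 and -1.01 in controls 1 to 5 and -0.11, -0.67, -0.12, -0.48 and -0.23 in E1. In ELF it read -0.85, -0.64, -0.55, -0.87 and -0.78. The ELF arrays stood between the groups: all were above every control array, and only E1 2 reached down among them. Ier2 rose by 0.85 (SE 0.12) in E1, a 1.8-fold change from -1.17 ± 0.13 to -0.32 ± 0.25 (SD, n = 5). The ELF difference from control, 0.44 (SE 0.12), was not called, and ELF minus E1 was -0.42 (SE 0.12). On slide 2 alone E1 exceeded the control array by 0.71, and on slide 3 alone ELF minus E1 was -0.35. The second Ier2 probe, at 83243758 to 83243816, did not follow the first, with 0.07 (SE 0.29) in E1 and 0.03 (SE 0.29) in ELF. It was the dimmer probe, with a control mean of -4.35, and its E1 readings ran from -4.87 to -3.14. With the mean of both probes the E1 difference of Ier2 was 0.46 and was not called. On the first probe the E1 call held in 14 of 15 fits that left out 1 array.

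Axud1 encodes the cysteine- and serine-rich nuclear protein Csrnp1, a transcriptional activator first found as a gene raised by axin. The probe used for the gene (chromosome 9, 119667234 to 119667293, minus strand) gave -0.49, -0.62, -0.60, -0.27 and -0.46 in control and 0.24, 0.09, 0.47, 0.31 and 0.34 in E1. It gave -0.40, -0.21, -0.26, -0.39 and -0.26 in ELF. All E1 arrays were above 0 and all others below it, and ELF overlapped control. The E1 rise was 0.78 (SE 0.09), 1.71-fold, and Axud1 was called in all 15 fits that left out 1 array. ELF minus control was 0.18 (SE 0.09) and ELF minus E1 was -0.59 (SE 0.09). Within slide 2 the E1 difference was 0.72, and within slide 3 ELF minus E1 was -0.65. The other Axud1 probes were also higher in E1, by 0.52 (SE 0.23) at 119668117 to 119668176 and by 0.83 (SE 0.25) at 119670205 to 119670264. On slide 2 alone these were 0.17 and -0.01, and E1 overlapped control on the latter probe. That probe differed from the first in ELF, where it stood 1.22 (SE 0.25) above control, though with overlap. It was the dimmest Axud1 probe, with means of -5.15 in control and -3.93 in ELF. Its ELF readings were -3.77, -3.40 and -3.81 on slide 4 and -4.10 and -4.58 on slide 3. The probes thus disagree on Axud1 at ELF, and in E1 within slide 2. With the mean of all Axud1 probes the E1 difference was 0.71 and was not called.

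Ier5 encodes another early response protein, known for its part in activating heat shock factor. Its probe (chromosome 1, 155059487 to 155059546, minus strand) ranged from 3.36 to 3.70 in control, from 3.20 to 3.75 in E1 and from 3.40 to 3.77 in ELF. The 3 groups overlapped throughout. The differences were -0.02 (SE 0.11) in E1 and 0.07 (SE 0.11) in ELF.

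**Figure D2:**
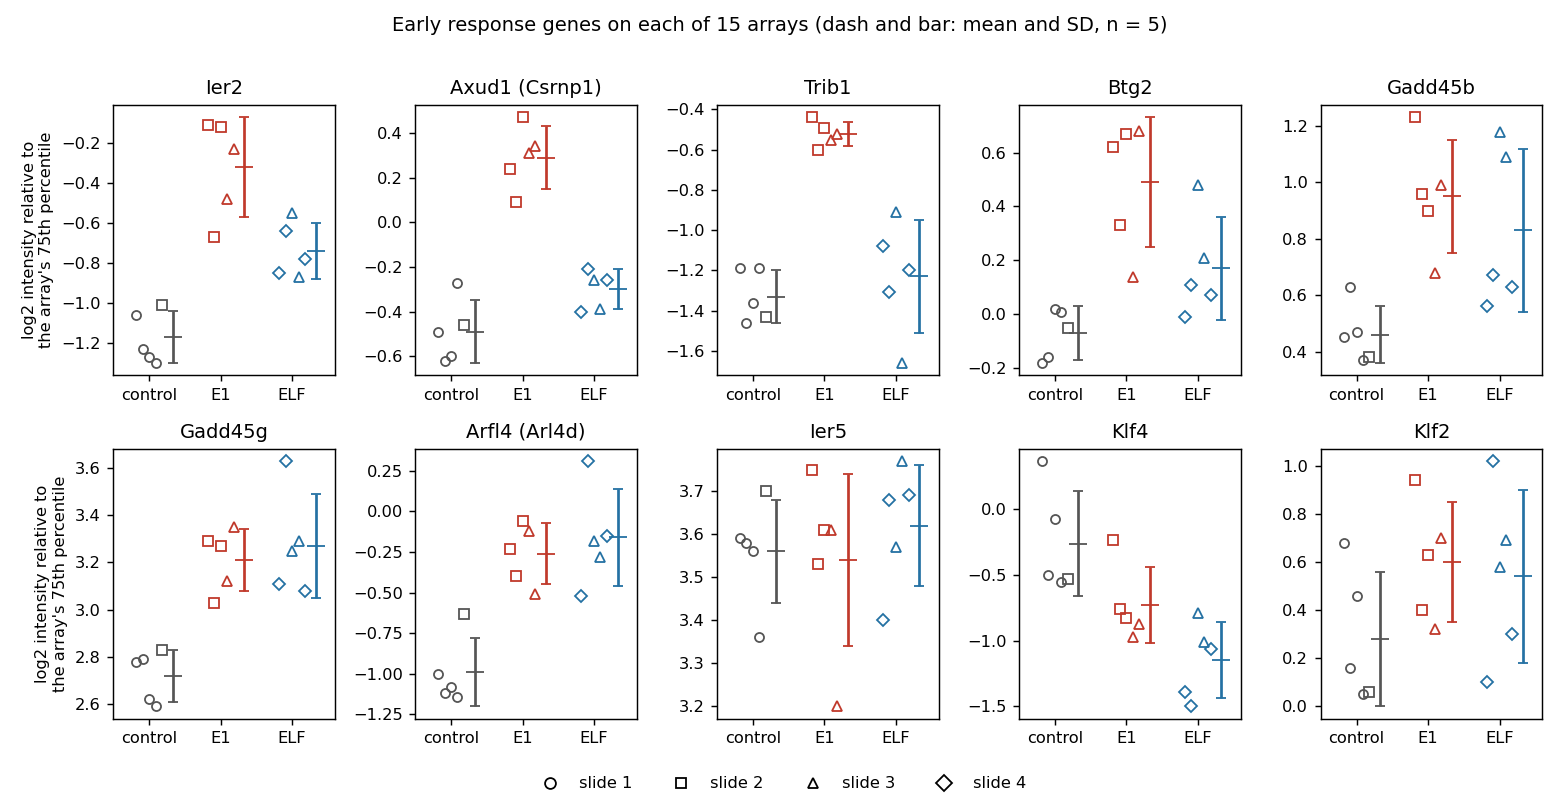
Log2 intensity relative to the array's 75th percentile (vertical axis) of each gene on each array, by group; marker shape gives the slide, and the dash and bar give mean and SD (n = 5). E1 arrays of Axud1 and Trib1 sit above all other arrays, both trained groups of Arfl4 and Gadd45g sit above control, and Ier5 overlaps in all groups; Klf2 is its unsaturated probe.

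The next pair acts in signalling. Trib1 is a pseudokinase that brings the ubiquitin ligase COP1 to its targets. On its single probe (chromosome 15, 59722645 to 59722704, plus strand) controls read -1.19, -1.46, -1.36, -1.19 and -1.43, and E1 arrays read -0.44, -0.60, -0.49, -0.55 and -0.52. ELF arrays read -1.08, -1.31, -0.91, -1.66 and -1.20. E1 formed a tight group above all the rest, while ELF spread to both sides of control. Trib1 rose by 0.81 (SE 0.12), 1.75-fold, from -1.33 ± 0.13 to -0.52 ± 0.06 (n = 5). ELF minus control was 0.09 (SE 0.12), and ELF minus E1 was -0.71 (SE 0.12). Within slide 2 the E1 difference was 0.92, and within slide 3 ELF minus E1 was -0.75. With the replicate number as a block over all 15 arrays, the Trib1 difference of 0.81 was no longer called. Of 15 fits that left out 1 array, 5 missed this call.

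Arfl4 encodes Arl4d, a small GTPase of the ARF-like family that acts at the plasma membrane on the actin skeleton. Its probe (chromosome 11, 101776642 to 101776701, plus strand) read -1.00, -1.12, -1.08, -1.14 and -0.63 in control and -0.23, -0.40, -0.06, -0.12 and -0.51 in E1. The ELF readings were -0.52, 0.31, -0.18, -0.28 and -0.15. Every trained mouse was above every control mouse, and the E1 and ELF arrays overlapped. Arfl4 rose in ELF by 0.83 (SE 0.15), 1.78-fold, from -0.99 ± 0.21 to -0.16 ± 0.30 (n = 5). In E1 it was 0.73 (SE 0.15) above control and was not called, and ELF minus E1 was 0.10 (SE 0.15). Control 5, the control array on slide 2, was the highest control, so on that slide the E1 difference was 0.40. With slide as a block ELF minus control was 0.49 (SE 0.34). The ELF call of Arfl4 was missed in 4 of 15 fits that left out 1 array, and with the replicate block. A full CRE lies close to the Arl4d start in the window printed above.

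The antiproliferative and growth-arrest genes follow. Btg2 belongs to the BTG and Tob family, whose proteins slow proliferation and bind the CCR4-NOT deadenylase, and it is a textbook p53 target. Its probe at chromosome 1, 133965302 to 133965361 (minus strand) read -0.18, -0.16, 0.02, 0.01 and -0.05 in control and 0.62, 0.33, 0.67, 0.14 and 0.68 in E1. ELF arrays read -0.01, 0.11, 0.48, 0.21 and 0.07. E1 4 was the lowest E1 array but still above all controls, and ELF overlapped both groups. The differences were 0.56 (SE 0.12) in E1 and 0.25 (SE 0.12) in ELF, neither called. On slide 2 alone the E1 difference was 0.59. On slide 3, which holds E1 4, ELF minus E1 was -0.07, against -0.32 (SE 0.12) over all arrays. The other Btg2 probes were 0.40 (SE 0.15) and 0.39 (SE 0.12) above control in E1, with overlap, and 0.04 and 0.08 above it in ELF. On slide 3 they gave -0.69 and -0.37 for ELF minus E1, lower than the first probe did.

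Gadd45b and Gadd45g encode small acidic proteins that bind and activate the kinase MAP3K4 upstream of p38 and JNK. Gadd45b is also known in hippocampal neurons for activity-driven DNA demethylation at growth factor genes. Its probe at chromosome 10, 80721751 to 80721810 (plus strand) gave 0.45, 0.63, 0.47, 0.37 and 0.38 in control and 1.23, 0.96, 0.90, 0.68 and 0.99 in E1. In ELF it gave 0.56, 0.67, 1.18, 1.09 and 0.63. ELF split by slide: both arrays on slide 3 matched the upper E1 arrays, and the 3 on slide 4 lay near the highest control. The differences were 0.49 (SE 0.13) in E1 and 0.37 (SE 0.13) in ELF, neither called, and with slide as a block they were 0.65 and 0.95. The second Gadd45b probe (80721228 to 80721287) was 0.42 (SE 0.12) above control in E1 without overlap, but -0.01 (SE 0.12) in ELF. The 2 probes therefore differ on ELF.

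Gadd45g (chromosome 13, 50882456 to 50882515, plus strand) read 2.78, 2.79, 2.62, 2.59 and 2.83 in control and 3.29, 3.03, 3.27, 3.12 and 3.35 in E1. It read 3.11, 3.63, 3.25, 3.29 and 3.08 in ELF. As for Arfl4, all trained mice were above all controls and the trained groups overlapped. Gadd45g rose in ELF by 0.55 (SE 0.11), 1.46-fold, from 2.72 ± 0.11 to 3.27 ± 0.22 (n = 5). The E1 difference of 0.49 (SE 0.11) was not called, and ELF minus E1 was 0.06 (SE 0.11). Slide 2 alone gave 0.36 for E1, and the slide block gave 0.40 (SE 0.27) for ELF minus control. The ELF call of Gadd45g was missed in 4 of 15 fits that left out 1 array, and with the replicate block. Gadd45b and Gadd45g each have a TATA box in the printed window.

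**Figure D3:**
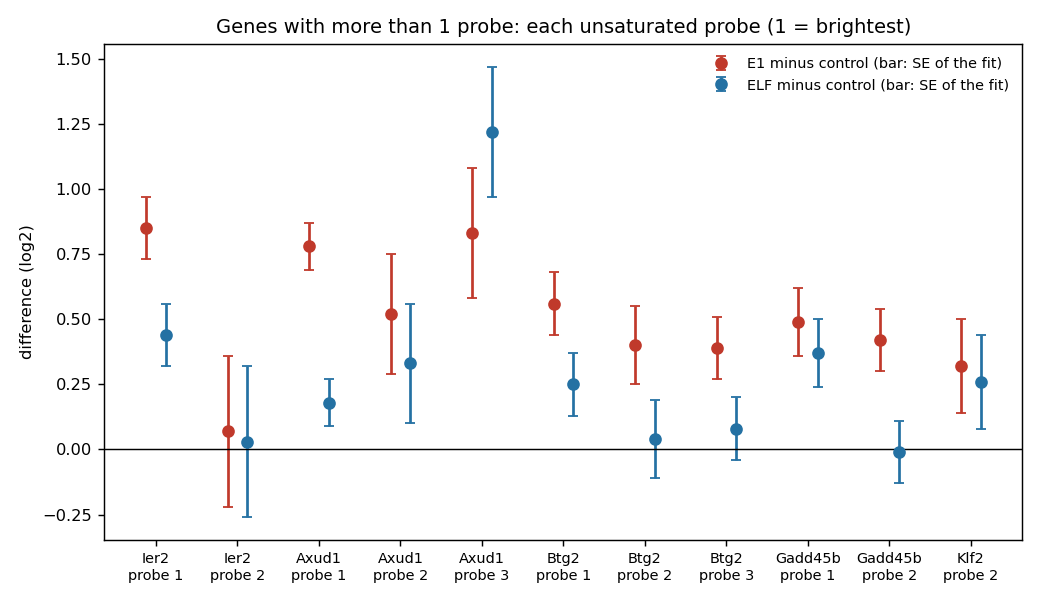
Difference from control (log2, vertical axis) for every unsaturated probe of the genes with more than 1 probe, E1 in red and ELF in blue, with the SE of the fit as bars. The 3 Btg2 probes agree in sign in E1 and the 2 Gadd45b probes differ in ELF (0.37 and -0.01); the second Ier2 probe lies near 0, and the third Axud1 probe is the one with the higher value in ELF.

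Klf4 moved the other way. Its probe (chromosome 4, 55541780 to 55541839, minus strand) read 0.37, -0.50, -0.07, -0.55 and -0.53 in control and -0.23, -0.76, -0.83, -0.97 and -0.87 in E1. It read -1.39, -1.50, -0.79, -1.01 and -1.06 in ELF. Control 1 was the highest of all 15 arrays, E1 overlapped both other groups, and ELF lay wholly below control. Klf4 fell by 0.89 (SE 0.20) in ELF, a fold size of 1.86, from -0.26 ± 0.40 to -1.15 ± 0.29 (n = 5). The E1 difference was -0.47 (SE 0.20) and ELF minus E1 was -0.42 (SE 0.20), neither called. Within slides the differences were near 0: -0.08 for E1 minus control on slide 2 and 0.02 for ELF minus E1 on slide 3, which gives -0.06 (SE 0.44) for ELF minus control with slide as a block. Klf4 was called in 4 of the 15 fits that left out 1 array, and without control 1 the ELF difference was -0.74.

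Most markers of endothelial cells, where Klf4 is also expressed, were lower than control too. Of 18 listed markers 17 were measured, 2 fell in E1 and 10 fell in ELF, with median differences of -0.49 and -0.73. Above control lay 1 in E1 (Egfl7, 0.07) and 2 in ELF (Egfl7, 0.11, and Tek, 0.01). With slide as a block Klf4 was -0.08 (SE 0.33) in E1 and -0.06 (SE 0.44) in ELF, and the marker median in E1 was -0.20. Of all genes, 0.0536% and 0.651% were called lower, with medians of 0.04 and 0.10. Of the 2 E1 calls, 1 was missed in 12 or more of 15 fits that left out 1 array and 2 with the replicate block. Of the 10 ELF calls, 6 were missed in 12 or more of these 15 fits and 7 with the replicate block. With slide as a block the median ELF difference was -0.47, with 15 of 17 below 0. All 17 were above background on some array. Their summed level, in units of the 75th percentile, ran from 15.7 to 25.3 in control (median 17.8), from 11.8 to 14.5 in E1 (median 13) and from 10.9 to 12.9 in ELF (median 11.8). Control 1 had the highest sum, 25.3, and control 5, the control array of slide 2, the lowest control sum, 15.7. Abcb1a, the drug efflux pump of brain vessels, fell in ELF by 1.20 (SE 0.17, limma adjusted p = 0.0174), or by 0.47 with slide as a block, and was 1 of the 2 genes whose values tracked Klf4 most closely. Whether a change in vessel content plays a part in the Klf4 values was not tested.

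**Figure D4:**
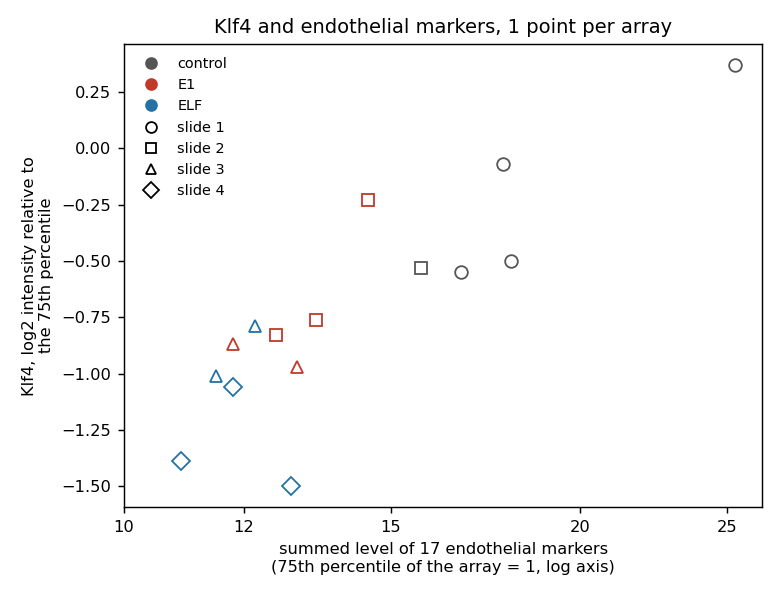
Klf4 (log2 intensity relative to the 75th percentile, vertical axis) against the summed level of 17 endothelial markers (log axis, 75th percentile = 1), 1 point per array; colour gives the group and shape the slide. Control 1 lies at the top right with a sum of 25.3 and Klf4 at 0.37, and the ELF arrays lie at the lower left with sums of 10.9 to 12.9.

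Klf2, the related factor, gave no usable difference from its probe at chromosome 8, 70842757 to 70842816, which was saturated on all 15 arrays. The counts over the 10 genes above hold this probe, since the gene rule took the probe with the highest mean. The unsaturated probe (70844133 to 70844192, plus strand) read 0.68, 0.16, 0.46, 0.05 and 0.06 in control, 0.94, 0.40, 0.63, 0.32 and 0.70 in E1, and 0.10, 1.02, 0.58, 0.69 and 0.30 in ELF. The groups overlapped, with differences of 0.32 (SE 0.18) in E1 and 0.26 (SE 0.18) in ELF. Over the 15 arrays, Pearson's r of this probe with the log2 summed endothelial level was -0.09, and that of Klf4 was 0.86. These values include the group differences, and why they differ was not tested.

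Relatives and partners of these genes were given from lists. Of 29 listed paralogs 28 were measured. In limma 0 were called in E1, and 6 stood at an unadjusted p under 0.05, as did 13.1% of all genes. Their medians were 0.10 in E1 and 0.06 in ELF, against 0.04 and 0.10 for all genes. In ELF 5 stood at an unadjusted p under 0.05 (23.0% of all genes). Of the paralogs 1 rose and 0 fell in ELF, where 1.45% of all genes were called higher and 0.651% lower. The 1 was Tob2, an antiproliferative relative of Btg2, which stood 0.38 (SE 0.08, limma adjusted p = 0.0302) above control in ELF and 0.39 (adjusted p = 0.0518) in E1. The Tob2 call was missed in 5 of 15 fits that left out 1 array (highest adjusted p = 0.108), and with slide as a block its ELF difference was 0.18. Ier3, a relative of the Ier genes by name, was 0.43 (adjusted p = 0.317) above control in E1, and Gadd45a, the damage-responsive member of the GADD45 family, was -0.33 (adjusted p = 0.349). Neither was called.

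Of 24 listed p53 targets and growth arrest genes 23 were measured, and limma called 0 in E1 and 0 in ELF, with 1 and 9 at an unadjusted p under 0.05 (13.1% and 23.0% of all genes). Their medians, 0.03 and 0.13, lay close to those of all genes, 0.04 and 0.10. The stress factor Atf3 was 0.53 (adjusted p = 0.097) above control in E1 and 0.54 (adjusted p = 0.0503) in ELF, and Trp53 itself was 0.37 (adjusted p = 0.486) above it in E1.

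Among the partners of GADD45 proteins (kinases of the p38 and JNK pathways, cell cycle partners and DNA demethylation enzymes) 14 of 16 were measured. In limma 0 were called in E1 (0 at an unadjusted p under 0.05, against 13.1% of all genes). In ELF 1 stood at an unadjusted p under 0.05 (23.0% of all genes). That gene, Ccnb1, the mitotic cyclin B1, was also called higher, as were 1.45% of all genes. Ccnb1 went from -4.34 ± 0.23 to -3.58 ± 0.38 (n = 5), a rise of 0.76 (SE 0.18, limma adjusted p = 0.045) that was missed in 12 of 15 fits that left out 1 array. Cdc2a (now Cdk1), its kinase, was 0.63 (adjusted p = 0.487) and Gadd45gip1 0.22 (adjusted p = 0.47) above control in E1. The list medians were 0.01 in E1 and 0.04 in ELF, against 0.04 and 0.10 for all genes.

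The regulators that act through SRF, CREB and MEF2 were measured in 17 of 20 cases. In E1 limma called 0 (0 at an unadjusted p under 0.05, against 13.1% of all genes). In ELF 3 stood at an unadjusted p under 0.05 (23.0% of all genes), and 1 rose, where 1.45% of all genes were called higher. The gene that rose, Gt4-1 (now Mrtfb, a coactivator of SRF), stood 0.79 (SE 0.17, limma adjusted p = 0.04) above control. Its sign turned to -0.08 with slide as a block, and 11 of 15 fits that left out 1 array missed it. In E1 it was 0.28 (adjusted p = 0.524), and Rps6ka5, a kinase that phosphorylates CREB and histone H3, was -0.24 (adjusted p = 0.382). The medians of this list, 0.01 in E1 and 0.04 in ELF, were also under those of all genes.

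For each gene the closest non-member among 26052 genes was found by Pearson's r over the 15 arrays. These values describe arrays that share groups and slides, and so include the group differences. Ier2 was followed most closely by Dusp1, a phosphatase of MAP kinases (r = 0.98), and then by Rnmtl1 (0.94). Btg2 was nearest to Fos (0.92) and Dusp1 (0.91), Trib1 to Plagl2 (0.87) and Arc (0.85), and Gadd45b to Egr4 and Gm129 (both 0.90). Arfl4 was nearest to Tob2 (0.95) and Icam4 (0.92), and Gadd45g to LOC435336 and 3110024A21Rik (both 0.95). Axud1 was nearest to 2310046A06Rik (0.89) and Dyrk3 (0.88), and Ier5 to Kcnf1 (0.85) and 9330180L21Rik (0.84). Klf4 was nearest to Abcb1a and Plxdc2 (both 0.92), and the unsaturated Klf2 probe to Slco4a1 and Txndc11 (both 0.81). The saturated Klf2 probe was nearest to Rpl38 and Cox8a (both 1.00), which were saturated on all 15 arrays too. Among the 10 genes the highest values were those of Trib1 with Axud1 and Gadd45g with Arfl4 (both 0.90), and the lowest was that of Klf4 with Arfl4 (-0.67).

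These counts rest on few arrays. Of the 10 genes, limma called 1 in E1 without control 2, 5 without ELF 2 and 6 without control 5, where all genes called were 8, 60 and 1117. In ELF it called 0 of the 10 without control 1, 2, 3 or 4, with 36, 0, 0 and 112 genes called in all, and 4 without control 5 or ELF 4, with 2110 and 5123 in all. Without ELF 3 the ELF count stayed at 3, and 1 gene, Trib1, was called between ELF and E1, with 582 and 11 genes called in all. With slide as a fixed block 0 of the 10 were called against control in E1 or ELF, and the 3 called between ELF and E1 (Axud1, Trib1 and the saturated Klf2 probe) stood among 5043 genes called, 19.3% of all.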

How the data were processed

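Hippocampal RNA of 15 mice was hybridised to single-colour Agilent arrays, 1 mouse each. Per the file headers, intensity was read and background-subtracted by Feature Extraction 9.5.3.1, and probe positions are on mm7. The deposited log2 table of the authors followed log2 of the mean spot intensity (r at least 0.996 on each array); how it was normalized is not stated in the sources at hand. From the processed intensity, outlier-flagged and 1639 control spots were removed, log2 values were set relative to each array's 75th percentile, and probes well above background on at least 5 of 15 arrays were kept (38458). The probe with the highest mean stood for its gene (26117 genes). Groups came from the sample labels and were compared in R 4.3.3 by lmFit and eBayes of limma 3.58.1 (two-sided, no covariate), with Benjamini-Hochberg adjustment over all genes. The pipeline was tested on simulated data. The number of arrays limits the precision.

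Members and lists were chosen with earlier results of these data known. Named genes are the members, the 2 non-members closest to each by Pearson's r, and from each list every called gene and otherwise the 2 with the largest E1 difference; a few endothelial values are given for Abcb1a, which that rule names. Replicate numbers are shared by the groups in the labels. Deviations of same-numbered control and E1 arrays correlated at 0.14 to 0.30 in all 5 pairs. The E1 array closest to a control array bore its own number for controls 4 and 5, but not for controls 1, 2 and 3. These values do not settle whether the numbers mark pairs, so the E1 counts are given with and without a replicate block. Same-numbered ELF arrays correlated at -0.43 to 0.31 with control and at -0.40 to 0.17 with E1, and their numbers were not treated as pairing. Alternatives covered scaling, background correction, filters, probe choice, slide and replicate blocks, and leaving out each array. The block fit on only the compared groups, the fits of single probes and the within-slide differences were added after seeing the data.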

Additional observations from a re-analysis of the deposited data

Results flagged for a closer look

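In 3 of the 51 groups of 5 arrays tested for a single distant value (17 probes in 3 groups), 1 array lay farther from its nearest neighbour than the 95% limit of Dixon's test allows. Chance gives about 1 in 20 such groups. The second Axud1 probe read -3.04 on ELF 4, against -1.97 to -1.56 on the other ELF arrays, and the first Axud1 probe showed no such gap there (-0.39). Arfl4 read -0.63 on control 5, against -1.14 to -1.00 on the other controls, which all lay on slide 1. Klf4 read -0.23 on E1 1, against -0.97 to -0.76 on the other E1 arrays.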

How the results depend on the processing

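Of the 10 genes, 3 were called in E1 against control, 3 in ELF against control and 0 between ELF and E1. For E1 against control the count was 5 with the authors' deposited values, 6 with quantile normalization, 1 with the mean of all probes of a gene, 6 at an adjusted p under 0.1, 0 with slide as a fixed or a random block, and 8 with a replicate block on only the 2 groups compared; a replicate block over 15 arrays gave 2. For ELF against control it was 0 with a replicate block (15 arrays or 10), with only the 2 groups compared, and with slide as a fixed or a random block. Between ELF and E1 it was 2 with the authors' values, with normexp followed by quantile normalization and with quantile normalization alone, 3 with slide as a fixed block, and 1 with probes well above background on all arrays or at an adjusted p under 0.1; both replicate blocks gave 0. With 1 array left out these counts ran from 1 to 6, from 0 to 4 and from 0 to 1. Why they moved was not tested. Over all genes, calls in E1 against control went from 49 to 240 with the authors' values, 299 with median scaling, 427 with quantile normalization, 12 and 3148 with the replicate blocks and 4 with the slide block. In ELF against control they went from 548 to 1587, 1204, 1713, 215, 0 and 85 under the same settings. With only the 2 groups compared or slide as a random block, 0 were called there. In E1 against control they were 35 with the mean of all probes, 342 at an adjusted p under 0.1 and 0 with slide as a random block. Between ELF and E1 they went from 2 to 11 with the authors' values and 5043 with the slide block. Quantile normalization gave 5 there, and 9 after normexp. Probes well above background on all arrays gave 4, as did an adjusted p under 0.1. The sign of E1 minus control held in all 27 alternatives for 8 genes, in 25 for Ier5 and in 24 for the saturated Klf2 probe. No called difference of the 10 genes changed sign in them. Some alternatives could not change a difference: a replicate block, a fit of only the 2 groups compared, and leaving out an array of the third group. These say nothing about the sign. ELF replicate numbers share only a number with the other groups, and those of E1 and control were not shown to mark pairs. All 17 probes were well above background on all 15 arrays.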
